A study of Mus musculus with 6 samples.

Results

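The 10 genes described here encode proteins of endoplasmic reticulum (ER)-associated degradation (ERAD), and they were chosen by name: the HRD1 ligase complex (*Sel1l*, *Syvn1*, *Os9* and *Herpud1*), the Derlins (*Derl1*, *Derl2* and *Derl3*), the EDEM proteins (*Edem1* and *Edem2*) and the glycoprotein-binding F-box gene *Fbxo6*. Earlier results of these data were known when these 10 genes and all other gene lists below were chosen, which limits every comparison of a list with all tested genes. The 10 genes are among the 54115 genes with a transcript in the data, and 9 of them were among the 12524 genes with enough reads to be tested. *Derl3* was not tested because of its low counts. The data are RNA-seq of whole liver from 3 wild-type (WT) and 3 *Sirt7* knockout (KO) male mice, all aged 24 months and fasted for 16 h. Both genotypes were littermates from heterozygous parents, on a background repeatedly backcrossed to C57BL/6J, and the KO mice lack the NAD+-dependent deacylase SIRT7 in all tissues. Each library was made from 1 animal, so the spread within a genotype is that between mice. In RNA of whole liver, fewer cells of a type and less RNA per cell cannot be told apart.

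ERAD removes proteins that fail to fold in the ER. Lectins and mannosidases recognize glycoproteins that have stayed too long in the folding cycle, a membrane ligase built around HRD1 moves them to the cytosol and ubiquitinates them, the ATPase p97 (VCP) pulls them out, and the proteasome degrades them. In secretory cells such as hepatocytes, many ERAD genes are targets of the unfolded protein response (UPR), through the transcription factors XBP1 and ATF6, which bind ER stress response elements in promoters.

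The promoters of 9 of the 10 genes were matched to RefSeq windows of GRCm38.p6, from 250 bases before to 50 after the transcription start, and were searched on both strands for 3 elements of the UPR. The element ERSE, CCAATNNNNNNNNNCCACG, was present in 2 of the genes, *Syvn1* and *Derl3*, and in 0.119% of all 32851 windows. ERSE-II, ATTGGNCCACG, was present in *Herpud1* and in 0.037% of all windows. UPRE, TGACGTGG, was present in none of the 9 genes and in 0.676% of all windows. ERSE contains the shorter words CCAAT and CCACG, which are common, at 37.4% and 32.8% of windows. The 250 bases before the start are given for the 3 genes with an element, in capitals, and for *Fbxo6*, the gene with the largest difference between genotypes, whose 3 windows hold none of the 3 elements and of which the most upstream is given. All are written 5′ to 3′ on the strand of the gene.
*Syvn1*, chr19:6046326-6046575, plus strand: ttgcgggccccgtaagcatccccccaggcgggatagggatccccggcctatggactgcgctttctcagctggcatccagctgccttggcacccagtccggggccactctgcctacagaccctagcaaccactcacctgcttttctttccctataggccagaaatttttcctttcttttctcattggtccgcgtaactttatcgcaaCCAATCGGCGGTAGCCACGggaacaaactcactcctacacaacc
*Herpud1*, chr8:94386179-94386428, plus strand: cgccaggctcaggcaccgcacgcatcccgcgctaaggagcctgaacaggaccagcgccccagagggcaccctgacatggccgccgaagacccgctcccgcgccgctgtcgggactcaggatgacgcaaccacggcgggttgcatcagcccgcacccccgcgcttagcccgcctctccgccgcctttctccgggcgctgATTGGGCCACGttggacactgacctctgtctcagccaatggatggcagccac
*Derl3*, chr10:75893148-75893397, plus strand: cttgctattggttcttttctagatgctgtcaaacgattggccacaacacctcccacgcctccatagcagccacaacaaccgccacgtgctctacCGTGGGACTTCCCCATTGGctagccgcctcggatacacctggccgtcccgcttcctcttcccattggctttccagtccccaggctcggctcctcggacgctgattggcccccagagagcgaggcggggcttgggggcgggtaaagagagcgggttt
*Fbxo6*, chr4:148152136-148152385, minus strand: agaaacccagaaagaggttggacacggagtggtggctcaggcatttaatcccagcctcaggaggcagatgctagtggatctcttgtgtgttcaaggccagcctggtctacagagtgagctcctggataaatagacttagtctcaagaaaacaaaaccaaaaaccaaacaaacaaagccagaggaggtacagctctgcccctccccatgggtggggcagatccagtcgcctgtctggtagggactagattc
In *Syvn1* the element lies on the strand of the gene, at -44 to -26 from the start. In *Herpud1* it lies on the same strand as the gene at -52 to -42, and in *Derl3* it lies on the opposite strand at -156 to -138, so its reverse complement stands in capitals. A match describes the letters only and is not evidence of binding, and the lack of a match says nothing about the factor.

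Between 9994860 and 13424776 reads were assigned to transcripts per mouse. Livers of the same genotype had rank correlations of 0.950 to 0.973 across genes, and livers of different genotypes 0.941 to 0.961. *Sirt7* was at 55.2, 45.5 and 47.3 CPM (counts scaled to the library size) in the WT livers and at 28.6, 41.8 and 40.8 CPM in the *Sirt7* KO livers. Its reads were lower in every KO mouse, with a log2 fold change of -0.41 (SE 0.18, adjusted p = 0.423, edgeR), but per transcript length the order turned, with 30.0 ± 3.81 TPM in the WT and 50.9 ± 16.7 TPM in KO mice (SD, n = 3). Which exons the KO allele lacks is not given in the sources used here. Hepatocyte markers (6 genes, among them *Alb* and *Ttr*) summed to 43280 to 48170 CPM in the WT livers and to 45360 to 54430 CPM in the *Sirt7* KO livers, and 2 of the 6 did not overlap between genotypes, both higher in KO mice, where 8.74% of all tested genes were. The summed levels of the Kupffer cell, plasma and B cell, T and NK cell, endothelial, stellate and cholangiocyte lists overlapped between genotypes. *Dcn* and *Spp1* made up most of the stellate and cholangiocyte sums, and only 1 of 5 T and NK cell markers was tested. Of the single tested markers in these lists only *Krt19*, of cholangiocytes, did not overlap. It was higher in KO mice, with 5, 12 and 8 reads in the WT and 12, 15 and 16 reads in the *Sirt7* KO livers. The Kupffer cell markers varied within each genotype, at 52.9, 52.6 and 114.5 CPM in the WT and 136, 45.3 and 94.3 CPM in the *Sirt7* KO livers. The part of cell composition in the results was not tested.

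Of the 9 tested ERAD genes, 8 had a positive log2 fold change (*Sirt7* KO over WT) and *Herpud1* had a negative one. Over all 12524 tested genes, 6179 were positive. Scaling to total counts alone turned *Derl1*, the smallest of the 8 positive ERAD genes, to the negative side. *Fbxo6*, *Edem2* and *Syvn1* had the largest differences, at 0.68, 0.55 and 0.43. The 9 values ran from -0.33 to 0.68 with a median of 0.21, against -0.01 over all tested genes.

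By edgeR, a gene was called at an adjusted p under 0.05 and a fold change over 1.5. None of the 9 genes (0 of 9) was called, where 0.00798% of all tested genes, that is 1 gene, were. At an unadjusted p under 0.05, 3 genes were higher in the *Sirt7* KO livers (*Syvn1*, *Edem2* and *Fbxo6*), where 6.54% of all tested genes were, and 0 were lower, where 4.78% were. In 3 genes (*Syvn1*, *Derl2* and *Fbxo6*) every KO mouse was above every WT mouse in CPM, which was the case for 8.74% of all tested genes. The opposite order was shown by 0 genes, against 8.09%. In TPM *Derl2* overlapped between genotypes. DESeq2 with average transcript length offsets, at the same thresholds, called 1 gene of the 9, *Fbxo6*, and 1.81% of the 13267 genes it tested.

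**Figure D1:**
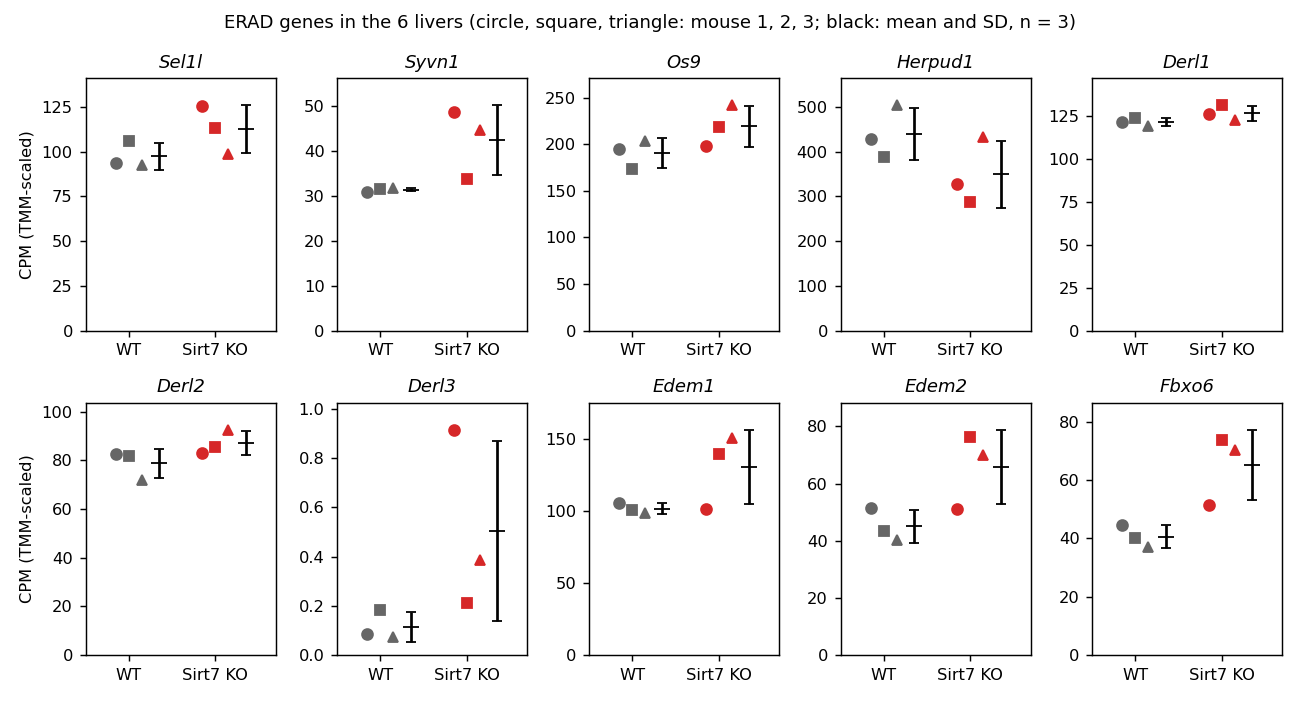
Level of each of the 10 ERAD genes in CPM (vertical axes, from 0) in the 3 WT (grey) and 3 *Sirt7* KO (red) livers, 1 symbol per mouse, with the mean and SD in black. *Fbxo6*, *Syvn1*, *Derl2* and the barely detected *Derl3* do not overlap between genotypes, *Edem1* and *Edem2* are high in KO mice 2 and 3 but not in KO mouse 1, and *Derl3* stays below 1 CPM.

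SEL1L is the adaptor that links substrates to the HRD1 ligase and keeps the ligase stable. *Sel1l* (ENSMUSG00000020964.14) lies on chromosome 12 from 91806043 to 91849157, on the minus strand (GRCm38). It was at 93.7, 106 and 92.4 CPM in the WT livers and at 125, 113 and 98.8 CPM in the *Sirt7* KO livers. The genotypes overlapped, since KO mouse 3 lay below WT mouse 2. The log2 fold change was 0.21 (SE 0.15, 95% interval -0.12 to 0.54, adjusted p = 0.643, edgeR). It was 0.13 without *Sirt7* KO mouse 1 and 0.10 with protein-coding transcripts only.

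SYVN1, also called HRD1, is the ubiquitin ligase of the complex and forms the channel in the ER membrane. *Syvn1* (ENSMUSG00000024807.18), on chromosome 19 from 6046576 to 6053712 (plus strand), was at 30.9, 31.4 and 31.7 CPM in the WT livers and at 48.6, 33.6 and 44.6 CPM in the *Sirt7* KO livers. The WT mice were nearly identical, at 31.3 ± 0.42 CPM (SD, n = 3), and the KO mice, at 42.3 ± 7.78 CPM (SD, n = 3), were spread widely, with KO mouse 2 only just above the WT mice. The log2 fold change of 0.43 (SE 0.16, 95% interval 0.06 to 0.80) had an unadjusted p of 0.0271 and an adjusted p of 0.364 by edgeR. *Syvn1*, whose promoter window holds the ERSE shown above, overlaps *Mrpl49* on the other strand, and 1.19% of its 31-base words are shared with that gene. *Mrpl49* was assigned 304 to 336 reads in the WT livers and 180 to 288 in the *Sirt7* KO livers. The division of shared reads between the genes is thus uncertain.

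OS9 is the lectin that hands glycoproteins with trimmed mannose to SEL1L. *Os9* (ENSMUSG00000040462.13), on chromosome 10 from 127095650 to 127121131 (minus strand), was at 195, 173 and 204 CPM in the WT livers and at 198, 218 and 242 CPM in the *Sirt7* KO livers. KO mouse 1 lay within the WT range and the other two above it. A log2 fold change of 0.20 was found (SE 0.15, adjusted p = 0.655, edgeR), which was 0.13 without *Sirt7* KO mouse 3.

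HERPUD1 is a short-lived membrane protein that gathers HRD1 and the Derlins into 1 complex, and its gene is a strongly inducible UPR target. *Herpud1* (ENSMUSG00000031770.16), on chromosome 8 from 94386438 to 94395377 (plus strand), was at 428, 389 and 504 CPM in the WT livers and at 329, 287 and 432 CPM in the *Sirt7* KO livers. KO mice 1 and 2 lay below all WT mice, and KO mouse 3 lay above WT mice 1 and 2. Between genotypes the log2 fold change was -0.33 (SE 0.19, 95% interval -0.76 to 0.10, adjusted p = 0.565, edgeR). In the main fit *Herpud1* was the only tested member below 0. It stayed below 0 in all 17 alternative settings, from -0.52 without *Sirt7* KO mouse 3 to -0.22 without WT mouse 3 and -0.21 without *Sirt7* KO mouse 2. With total counts *Derl1* was below 0 as well.

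The Derlins are membrane proteins related to rhomboid proteases but without their activity, and they help substrates leave the ER. *Derl1* (ENSMUSG00000022365.6), on chromosome 15 from 57869502 to 57892448 (minus strand), was at 121, 124 and 119 CPM in the WT livers and at 126, 131 and 122 CPM in the *Sirt7* KO livers. Its spread was small in both genotypes, KO mouse 3 fell within the WT range, and the log2 fold change was 0.06 (SE 0.13, 95% interval -0.23 to 0.34, adjusted p = 0.907, edgeR), or 0.03 without *Sirt7* KO mouse 2. Of its 31-base words, 8.60% are shared with *Gm35638*. *Derl2* (ENSMUSG00000018442.13), on chromosome 11 from 71007164 to 71019841 (minus strand), was at 82.5, 81.9 and 72.0 CPM in the WT livers and at 83.0, 85.6 and 92.6 CPM in the *Sirt7* KO livers. In CPM the groups did not overlap, but KO mouse 1 and WT mouse 1 were almost level. In TPM the groups overlapped, at 52.9, 45.6 and 38.6 in the WT and 45.3, 50.6 and 50.7 in the *Sirt7* KO livers. *Derl2* had a log2 fold change of 0.14 (SE 0.13, adjusted p = 0.737, edgeR), which was 0.09 without WT mouse 3. *Derl2* overlaps *Mis12* on the other strand, and 3.46% of its words are shared with that and other genes.

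*Derl3* (ENSMUSG00000009092.5), on chromosome 10 from 75893413 to 75895941 (plus strand), is the Derlin known from professional secretory cells such as plasma cells and pancreatic acinar cells. It was assigned 1, 2 and 1 reads in the WT livers and 10, 2 and 4 reads in the *Sirt7* KO livers. KO mouse 1 held 10 of the 20 reads. Every KO mouse was above every WT mouse in CPM (0.07 to 0.18 in the WT and 0.21 to 0.92 in the *Sirt7* KO livers), but the margin was within the counting error of such low reads, and a difference between genotypes was not detectable at this depth. Markers of plasma and B cells summed to 66.5, 65.1 and 28.9 CPM in the WT livers and to 51.0, 26.8 and 81.2 CPM in the *Sirt7* KO livers, and their part in the *Derl3* reads was not tested.

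EDEM1 and EDEM2 belong to the family of mannosidases that trim the glycans of misfolded proteins and so mark them for OS9. *Edem1* (ENSMUSG00000030104.9), on chromosome 6 from 108828641 to 108859356 (plus strand), was at 106, 101 and 98.4 CPM in the WT livers and at 101, 140 and 151 CPM in the *Sirt7* KO livers. KO mice 2 and 3 stood clearly above the WT mice, and KO mouse 1 lay among them. The log2 fold change was 0.36 (SE 0.17, 95% interval -0.03 to 0.75, adjusted p = 0.471, edgeR). With length offsets it was larger, at 0.69 (SE 0.25, adjusted p = 0.145, DESeq2). With protein-coding transcripts only it was smaller, at 0.245 (SE 0.21, adjusted p = 0.743, edgeR). Salmon uses an effective length, which is shorter than the full length. The average effective length of *Edem1* transcripts, weighted by TPM, was 2223 bases in the WT and 1732 bases in the *Sirt7* KO livers. The non-coding Edem1-203, of 368 bases (effective length 118), was assigned 12.7, 15.5 and 12.4 reads in the WT and 32.5, 28.9 and 47.5 reads in the *Sirt7* KO livers. Its level was 8.21, 9.46 and 6.42 TPM in the WT and 19.6, 21.5 and 32.4 TPM in the *Sirt7* KO livers.

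*Edem2* (ENSMUSG00000038312.10), on chromosome 2 from 155701677 to 155729475 (minus strand), was at 51.5, 43.4 and 40.3 CPM in the WT livers and at 51.2, 76.2 and 70.0 CPM in the *Sirt7* KO livers. The pattern of *Edem1* was repeated, with KO mice 2 and 3 high and KO mouse 1 level with WT mouse 1. The log2 fold change of 0.55 (SE 0.18, 95% interval 0.13 to 0.96) had an unadjusted p of 0.0155 and an adjusted p of 0.307 by edgeR.

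FBXO6 is an F-box protein that binds the core of N-glycans in the cytosol and brings such glycoproteins to an SCF ubiquitin ligase. *Fbxo6* (ENSMUSG00000055401.14), on chromosome 4 from 148145716 to 148152140 (minus strand), was at 44.6, 40.1 and 37.1 CPM in the WT livers and at 51.4, 73.6 and 70.4 CPM in the *Sirt7* KO livers. All KO mice lay above all WT mice, and KO mouse 1 was again the lowest of its genotype. The means were 40.6 ± 3.81 CPM (SD, n = 3) in the WT and 65.2 ± 12.0 CPM (SD, n = 3) in the *Sirt7* KO livers, a 1.60-fold difference. Its log2 fold change was 0.68 (SE 0.17, 95% interval 0.29 to 1.07), with an unadjusted p of 0.00336 and an adjusted p of 0.195 by edgeR. DESeq2 called it higher, at 0.69 (SE 0.21, adjusted p = 0.0428) without and at 0.78 (SE 0.23, adjusted p = 0.0461) with length offsets. The edgeR call also appeared without *Sirt7* KO mouse 1, at 0.83 (adjusted p = 0.0306), but that fit called 252 of all genes.

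**Figure D2:**
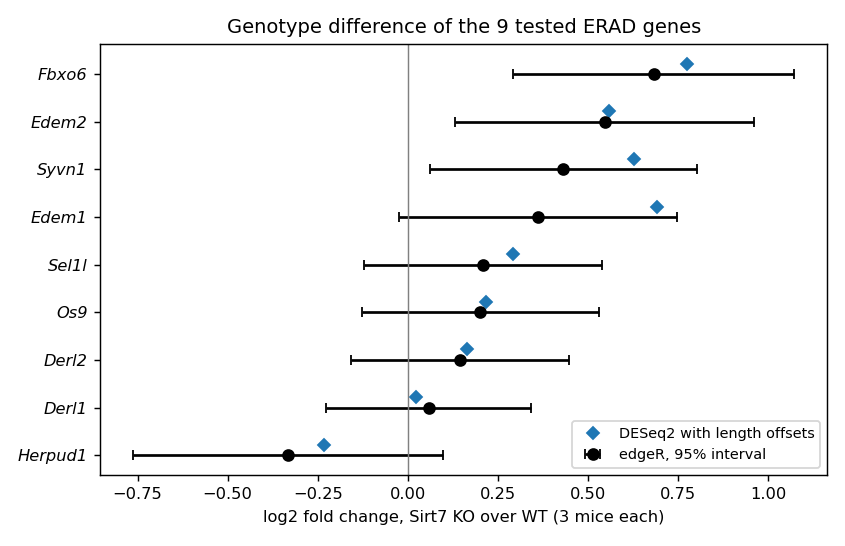
Log2 fold change (*Sirt7* KO over WT, horizontal axis, 3 mice each) of the 9 tested ERAD genes by edgeR with its 95% interval (black) and by DESeq2 with length offsets (blue). Only *Fbxo6*, *Edem2* and *Syvn1* have an edgeR interval above 0, and no interval lies wholly below 0.

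Exact two-sided permutation of log2(CPM + 0.5), which cannot go below p = 0.1 with 3 mice against 3, gave p = 0.1 for *Fbxo6*, *Syvn1* and *Derl2*. The same exact permutation gave p = 0.2 for *Sel1l*, *Os9*, *Derl1*, *Edem1* and *Edem2* and p = 0.3 for *Herpud1*.

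Levels were compared between genes only as TPM, which accounts for transcript length and was summed over all transcripts of a gene, non-coding ones included. In WT mice *Herpud1* was the most abundant, at 259 ± 34.0 TPM (SD, n = 3), followed by *Os9* at 70.3 ± 8.79 TPM. *Derl2* (45.7 ± 7.18), *Derl1* (45.2 ± 0.93), *Edem1* (39.4 ± 6.90) and *Fbxo6* (37.8 ± 5.22 TPM) came next, and neighbours in this order overlapped between mice. *Sel1l* (25.2 ± 3.13) and *Edem2* (19.7 ± 3.58 TPM) overlapped as well, *Syvn1* was lower at 8.69 ± 0.63 TPM, and *Derl3* was lowest at 0.17 ± 0.08 TPM. By these sums the ligase subunit was less abundant as mRNA than its partners SEL1L and OS9. Non-coding transcripts weigh on this order. Edem1-201, the only coding transcript of *Edem1*, was at 13.9, 11.1 and 12.2 TPM in the WT livers. The coding Edem2-201 was at 22.4, 16.2 and 16.3 TPM there. Of the coding *Sel1l* transcripts, Sel1l-204 was at 4.90 to 7.81 TPM and Sel1l-201 at 4.68 to 4.87 TPM in the WT livers. In *Sirt7* KO mice *Herpud1* and *Os9* kept the highest levels, at 213 ± 68.1 and 78.3 ± 10.8 TPM. *Fbxo6* (62.2 ± 14.5 TPM) and *Edem1* (a mean of 61.7 TPM, from 47.4 to 77.35) then had higher means than *Derl2* (48.8 ± 3.09 TPM) and *Derl1* (44.2 ± 5.01 TPM). Their means were lower than both in WT mice. The ranges overlapped in KO mice, and KO mouse 1 had *Fbxo6* at 45.5, *Edem1* at 47.4 and *Derl2* at 45.3 TPM. The coding Edem1-201 was at 9.35, 17.2 and 16.8 TPM in KO mice. It was below the coding Derl2-207 (30.0, 42.6 and 41.5 TPM) and Derl1-201 (32.0, 33.8 and 32.3 TPM). A change of order between genotypes is thus not established.

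Salmon divides reads among isoforms, so isoform shares are estimates. The *Syvn1* isoform with the most reads, Syvn1-204 (protein coding, 16 exons), took 25.9%, 53.6% and 57.3% of the reads of the gene in the WT livers and 76.5%, 91.8% and 77.7% in the *Sirt7* KO livers. These shares did not overlap (45.6% ± 17.2 against 82.0% ± 8.52, SD, n = 3, exact permutation test, two-sided, p = 0.1, the smallest possible). In WT mouse 1 another coding isoform of 16 exons, Syvn1-207, took 47.0% of the reads, and it was at 0 in the other 5 mice. *Fbxo6* had 8 isoforms, all protein coding, of which Fbxo6-202 took 36.7% to 45.8% in the WT livers but 12.2%, 32.4% and 58.5% in the *Sirt7* KO livers. Fbxo6-208 took 72.9% in KO mouse 1 and 14.3% and 4.06% in KO mice 2 and 3. *Sel1l* was split in a like manner, with Sel1l-201 at 34.1% to 37.1% in the WT livers and at 63.8%, 22.6% and 19.3% in the *Sirt7* KO livers. The KO mice thus differed among themselves more than the WT mice did in these isoforms of *Fbxo6* and *Sel1l*. Edem1-205, annotated as a target of nonsense-mediated decay, took 15.3%, 15.2% and 11.8% of *Edem1* reads in the WT livers and 26.8%, 11.4% and 18.8% in the *Sirt7* KO livers. For the leading isoform of the other genes the exact permutation p was 0.3 to 1.0.

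The mice of a genotype did not carry all of these genes at 1 common level. Taken against the average over all 6 animals, the mean log2 level of *Edem1* and *Edem2* was -0.12 in *Sirt7* KO mouse 1 and 0.39 in both KO mice 2 and 3, and that of the WT mice ran from -0.32 to -0.09. For *Syvn1* KO mouse 1 was instead the highest, at 0.42, and KO mouse 2 the lowest of its genotype, at -0.11. *Sel1l* was also highest in KO mouse 1, at 0.26, and KO mouse 3, at -0.08, was below WT mouse 2. The mean over the 9 genes was -0.08, -0.14 and -0.15 in the WT livers and 0.02, 0.12 and 0.22 in the *Sirt7* KO livers.

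**Figure D3:**
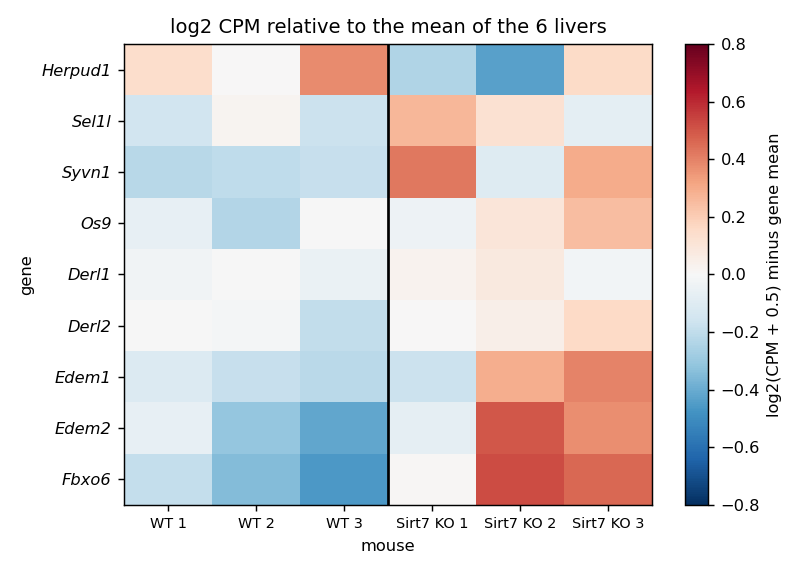
Level of the 9 tested ERAD genes (rows) in each liver (columns) as log2(CPM + 0.5) minus the mean of the 6 livers, from blue (lower) to red (higher). *Edem1*, *Edem2* and *Fbxo6* are highest in *Sirt7* KO mice 2 and 3, *Syvn1* and *Sel1l* in KO mouse 1, and *Herpud1* in WT mouse 3.

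Pairs of genes were described by Pearson's r over all 6 mice, so that r includes the difference between genotypes, and the 2 genes of a pair come from the same library. *Fbxo6* and *Edem2* had r = 0.985, *Edem1* and *Edem2* 0.933, and *Edem1* and *Fbxo6* 0.927. *Syvn1* had r = 0.984 with *Xbp1*, the UPR transcription factor, and only 0.354 with *Edem2*. Its r was 0.832 with the chaperone gene *Hspa5*, and 0.585 and 0.517 with the UPR genes *Ern1* and *Atf6*. *Herpud1* had a negative r with every other tested member, from -0.98 with *Derl1* to -0.02 with *Os9*. The genes outside the 10 that were most like the mean standardized pattern of the 9 were *Ppib* (r = 0.996), *Hdac5* (0.995), *Cela1* (0.993), *Slc22a7* (0.993) and *Ppp2r1a* (0.988), again over 6 mice. They were picked for the highest r among all tested genes. The pattern was below 0 in every WT mouse and above 0 in every KO mouse, which favours genes that differ between genotypes. Such a high r is thus not evidence of a link with ERAD.

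**Figure D4:**
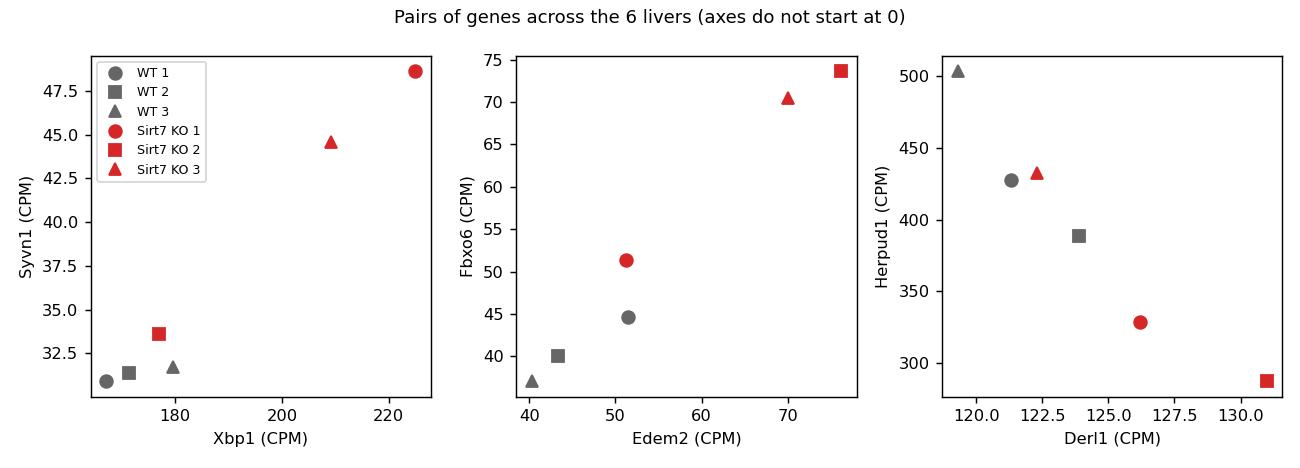
CPM of 3 pairs of genes in the 6 livers, 1 symbol per mouse (WT grey, *Sirt7* KO red), on axes that do not start at 0. *Syvn1* follows *Xbp1* and *Fbxo6* follows *Edem2*, while *Herpud1* is lower where *Derl1* is higher, within a narrow range of *Derl1*. The 3 pairs have the most extreme r of all pairs examined, each over 6 mice.

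The other 64 ERAD genes, listed by their roles, gave the setting of these values. Of the 61 that were tested, 36 had a positive log2 fold change, 0 were called by edgeR or by DESeq2, and the median was 0.04. At an unadjusted p under 0.05, 2 of the 61 were higher and 4 lower by edgeR, where 6.54% and 4.78% of all tested genes were, so these counts were near the background. Likewise 5 of the 61 did not overlap and were higher and 4 did not overlap and were lower, against 8.74% and 8.09% of all tested genes. The genes of lumenal recognition, which act beside the EDEM proteins, were all positive (6 of 6, median 0.26). *Erlec1* (0.04, SE 0.29), *Dnajc10* (0.07, SE 0.25) and *Edem3* (0.20, SE 0.35) were less than their SE from 0. Among the 6 genes *Uggt1*, the sensor that sends misfolded glycoproteins back for folding, was at 36.6, 31.1 and 28.2 CPM in the WT and 48.1, 50.1 and 46.7 CPM in the *Sirt7* KO livers (log2 fold change 0.60, SE 0.15, adjusted p = 0.186, edgeR). *Txndc11*, a thioredoxin-like partner of the EDEM proteins, was at 19.8, 20.5 and 22.7 CPM in the WT and 27.9, 29.0 and 30.6 CPM in the *Sirt7* KO livers (0.47, SE 0.14, adjusted p = 0.249, edgeR). In both genes, which are 2 of those 5, every KO mouse lay above every WT mouse.

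For the ERAD roles in and beyond the membrane the medians were nearer to 0. They were 0.04 for 18 membrane ligases and partners other than HRD1 (11 positive), -0.09 for 6 E2 enzymes (2 positive), -0.01 for 10 genes of p97 extraction (4 positive) and 0.02 for 16 tested genes of cytosolic shuttling and deglycosylation (10 positive). *Vcp*, which encodes p97, had a log2 fold change of 0.09 (SE 0.18, adjusted p = 0.889, edgeR). The ubiquilin *Ubqln4* was at 25.7, 28.4 and 24.0 CPM in the WT and 15.9, 17.8 and 20.1 CPM in the *Sirt7* KO livers (-0.54, SE 0.16, adjusted p = 0.245, edgeR). *Stub1*, the ligase CHIP that works with chaperones, had -0.40 (SE 0.14, adjusted p = 0.336, edgeR), and the E2 enzyme *Ube2k* had -0.34 (SE 0.14, adjusted p = 0.417, edgeR). In these 3 genes, which are among the 4 without overlap on the lower side, every KO mouse lay below every WT mouse. Of the SCF subunits and the other sugar-binding F-box genes, 5 of 7 were tested, with a median of 0.12, and *Fbxo2* and *Fbxo27* had too few reads.

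The ER lumen folding genes, which encode the chaperones and oxidoreductases upstream of ERAD, had a median of 0.74, and 15 of 16 were positive. Single genes ranged from about 0 (*Dnajb9*) to 1.68, where the 9 ERAD genes ran from -0.33 to 0.68, and the difference between the lists was not tested. edgeR called 0 of them, and 12 of 16 had an unadjusted p under 0.05, all higher, where 6.54% of all tested genes did. DESeq2 called 8 without and 7 with length offsets, where the latter fit called 1.81% of all genes it tested. *Hspa5*, the chaperone BiP, was at 490, 426 and 350 CPM in the WT and 895, 632 and 636 CPM in the *Sirt7* KO livers (log2 fold change 0.77, SE 0.20, adjusted p = 0.202, edgeR). *Calr*, *Ppib* and *Pdia4* had 0.89, 0.83 and 0.77 (adjusted p = 0.123, 0.134 and 0.123, edgeR). KO mouse 1 was the highest for this list, with a mean log2 level of 0.64 relative to the 6 livers, against 0.10 and 0.25 in KO mice 2 and 3, whereas it was the lowest KO mouse for *Edem1*, *Edem2* and *Fbxo6*.

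Of the UPR sensors and factors, 9 of 10 were tested, 7 were positive and the median was 0.24. *Xbp1* was at 167, 171 and 180 CPM in the WT and 225, 177 and 209 CPM in the *Sirt7* KO livers (0.24, SE 0.14, adjusted p = 0.588, edgeR). *Atf6* was at 21.6, 17.4 and 18.1 CPM in the WT and 25.6, 30.1 and 25.0 CPM in the *Sirt7* KO livers (0.50, SE 0.16, adjusted p = 0.283, edgeR). *Ern1*, which encodes the sensor IRE1 that splices *Xbp1* mRNA, had 0.54 (SE 0.21, adjusted p = 0.364, edgeR). In CPM *Atf6* and *Ern1* did not overlap between genotypes, whereas *Xbp1* did. In TPM *Ern1* overlapped, at 3.08, 1.94 and 2.33 in the WT and 2.34, 2.59 and 3.75 in the *Sirt7* KO livers. With length offsets the log2 fold change of *Ern1* was 0.31 (SE 0.30, adjusted p = 0.87, DESeq2).

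**Figure D5:**
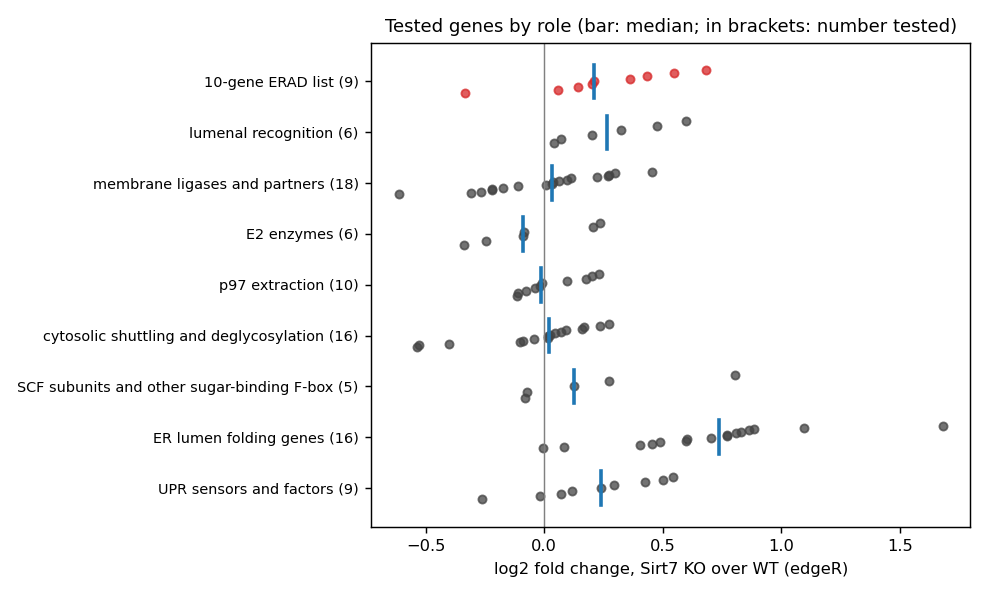
Log2 fold change (*Sirt7* KO over WT, edgeR, horizontal axis) of the tested ERAD genes and related lists, 1 point per gene, with the median as a bar and the number tested in brackets. The medians are 0.21 for the 10-gene list (9 tested), 0.26 for lumenal recognition, from -0.09 to 0.12 for the other ERAD roles, and 0.74 for the folding genes.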

How the data were processed

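The authors trimmed reads with Trim Galore 0.6.5 and quantified transcripts of GRCm38 with Salmon 1.2.1, and libraries were not pooled. The authors deposited estimated counts per transcript, which are not normalized, and TPM, which the authors' Salmon run scaled to transcript length and to a fixed total per mouse. Libraries came from a full-length cDNA kit that does not mark strand.

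Estimated counts were summed by gene of GENCODE M21 and rounded. Of 140992 transcripts, 139172 matched with the same version and 619 with another, and 1201, with 0.303% to 0.492% of reads, had no gene and were left out. Mice of 1 genotype differed beyond sampling noise (chi-square of at least 11.0 per gene), so each counted as 1 sample. edgeR 4.0.16 (R 4.3.3; quasi-likelihood test, TMM, filterByExpr with a minimum count of 10) was fitted to all 6 mice with genotype as the term, and p-values were adjusted over all 12524 genes by the Benjamini-Hochberg method. DESeq2 1.42.0, limma 3.58.1, other scalings and filters, a replicate block and leaving out each mouse were alternatives. CPM are TMM-scaled. The script was tested on simulated data. Motifs and shared words were searched with Python 3.11.15. Molecular identifiers are not given in the sources used here, so depth covers counting error only.

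The 10 genes and all lists were chosen with earlier results of these data known. Besides them the text names *Sirt7*, *Hspa5*, *Xbp1*, *Atf6*, *Ern1* and *Vcp*, up to 3 genes per role with an unadjusted p under 0.05 and no overlap between genotypes, and the 5 genes most like the mean pattern. Genes that overlap or share words with a member, isoforms, marker genes, *Fbxo2* and *Fbxo27* were named outside this rule after their values were seen. The same holds for *Edem3*, *Erlec1*, *Dnajc10*, *Dnajb9*, *Creld2*, *Fbxo17* and *Fbxo44*.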

Additional observations from a re-analysis of the deposited data

How the results depend on the processing

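The number of genes called between genotypes, 1 by edgeR, depended on the processing. It was 2 with total counts, 2 with length offsets in edgeR and 2 with limma-voom, 633 with no filter on low counts, 257 with DESeq2 without and 240 with length offsets, 925 with the unadjusted p and the fold change over 1.5, and from 0 to 252 when 1 mouse was left out (252 without *Sirt7* KO mouse 1, 2 without WT mouse 1 and 0 without any other). Of the 9 ERAD genes, 0 were called by edgeR, and 1, *Fbxo6* in each case, with no filter on low counts (log2 fold change 0.69, adjusted p = 0.018, edgeR), with either DESeq2 fit, with the unadjusted p and fold change, and without *Sirt7* KO mouse 1, so that leaving out 1 mouse gave 0 to 1. The adjusted p of *Fbxo6* over all alternatives went up to 0.548 and its log2 fold change ran from 0.56 to 0.83. The median log2 fold change of the 9 genes, 0.21, was 0.11 with total counts, where the median of all genes was -0.11, and 0.29 with length offsets in edgeR and in DESeq2. *Derl1* turned to -0.051 with total counts. Of 153 values (9 genes, 17 alternatives), 148 kept direction and side of the threshold, 4 passed it (*Fbxo6*) and 1 reversed (*Derl1*). The cause of these shifts was not tested. The replicate block called 41 genes (31 higher, 10 lower) and 0 of the 9. The deviations of mice with the same number from their genotype means had correlations of 0.07, 0.08 and -0.04. Mice with different numbers were not compared in this way, so these values cannot decide whether the numbers pair the animals. No pairing is stated in the sources used here.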

Other observations

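Among the sugar-binding F-box relatives of *Fbxo6*, *Fbxo17* was assigned 15, 17 and 11 reads in WT and 13, 24 and 27 reads in *Sirt7* KO mice, and *Fbxo44* 35, 22 and 37 reads in WT and 25, 25 and 36 reads in *Sirt7* KO mice. *Fbxo6*, with 442 to 527 reads in WT mice, was thus the member of this family with the most reads in these livers. *Dnajb9*, which encodes an ER co-chaperone that feeds substrates to ERAD, was at 27.7, 22.9 and 29.1 CPM in WT and 49.0, 13.5 and 16.9 CPM in *Sirt7* KO mice, so KO mouse 1 was the highest and KO mice 2 and 3 the lowest of all 6. *Creld2*, another ER stress gene, was at 51.1 CPM in KO mouse 1 and at 15.5 to 21.2 CPM in the other mice. These genes were chosen after their values were seen.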
